A study of Mus musculus with 3 samples.

Results

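Orphan G protein-coupled receptors of the Gpr series, adhesion receptors of the Adgr series and the regulators of G protein signalling (RGS proteins) were examined in RNA from 3 immune cell populations of the mouse gut epithelium. Members were the protein-coding genes whose symbol begins with Gpr and a number, Adgr and a subfamily letter and number, or Rgs and a number, leaving out the macrophage marker Adgre1. The rule gave 121 genes of 21131 protein-coding genes counted, namely 73 Gpr genes, 26 adhesion receptor genes and 22 RGS genes. All populations came from RAG-2 null mice, which cannot assemble antigen receptors and so have no mature T or B lymphocytes. For iCD8a, CD45-positive cells bearing CD8α were taken. The ILC1 library came from group 1 innate lymphoid cells gated on NKp46 and NK1.1. The CD11b+ library came from CD45-positive myeloid cells that bore CD11b and lacked CD8α. Age, treatment and how many mice were pooled are not stated in the labels. Each population had 1 library, so no difference below has a replicate check and no p-value was computed.

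G protein-coupled receptors are membrane proteins that turn an outside ligand into the exchange of GDP for GTP on a G protein α subunit. RGS proteins speed the hydrolysis of that GTP and so end the signal, and each RGS subfamily favours certain α subunits. Adhesion receptors carry a long extracellular part that binds matrix or cell surface partners and is cut from the membrane part during maturation. In leukocytes these genes are known for control of migration, retention in tissue and the sensing of lipids, protons and metabolites.

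Levels are counts per 1000000 gene-assigned reads (CPM) with library sizes scaled by TMM, a method that corrects for differences in RNA composition. Gene-assigned reads numbered between 21678113 and 30511296 per library. Each fold is followed by a 95% exact interval in brackets. That interval covers the error of counting reads and not the spread between animals. A gene was counted as apart in a pair of libraries when the fold reached 4, the interval bound nearer to equality reached 2, and its level was at least 5 CPM in the higher library. The 3 comparisons share libraries and are given side by side. In RNA from a mixed population, fewer cells that express a gene and less RNA per cell cannot be told apart.

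The marker genes followed the gates in part. Summed over 9 T lineage genes, iCD8a had 5540 CPM, ILC1 136 and CD11b+ 279. Most of the iCD8a sum came from Cd3g, at 2749 CPM, and from Cd8a, which encodes the gated CD8α, at 2636 CPM. Of the 9 genes, 5 were apart in favour of iCD8a over ILC1 and 1 (Cd247) the other way. Against CD11b+ the numbers were 6 and 1 (Cd6). Over 8 natural killer and ILC1 genes the levels were 339, 3100 and 49.2 CPM in iCD8a, ILC1 and CD11b+. The 10 macrophage and monocyte genes summed to 375, 564 and 8452 CPM, and without Itgam, which encodes CD11b, to 13.0, 377 and 7607 CPM. Marker genes of other cells were also counted. Plasmacytoid dendritic cell genes were apart for 5 of 9 in favour of iCD8a over ILC1, peritoneal-type macrophage genes for 6 of 8 in favour of ILC1 over iCD8a, and intestinal epithelial genes for 11 of 14 in favour of CD11b+ over iCD8a and 12 of 14 over ILC1.

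Of the 121 members, 64 reached 1 CPM in at least 1 library and 49 reached 5 CPM. That is 52.9% and 40.5% of members, beside 59.7% and 50.7% of all protein-coding genes. A further 57 members stayed below 1 CPM in every library, of which 15 had 0 counts throughout, including Rgs5 and Rgs6. Among the 49 members at 5 CPM or more, the highest level was in CD11b+ for 25, in iCD8a for 14 and in ILC1 for 10, and 20 were apart in none of the pairs. These counts were not made over all protein-coding genes, so they show no trait of the members. Of all protein-coding genes at 5 CPM, 10.1% were apart above both others in CD11b+, 1.46% in iCD8a and 1.62% in ILC1. Member genes took 1.00% of gene counts in iCD8a (0.999% to 1.01%), 0.850% in ILC1 (0.846% to 0.854%) and 0.619% in CD11b+ (0.616% to 0.622%).

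RGS genes supplied most of those counts in each library, and most RGS counts were of Rgs1. Rgs1 limits signalling by chemokine receptors in lymphocytes. Its level in iCD8a was 6055 CPM, beside 4548 in ILC1 and 2435 in CD11b+. Its share of all RGS counts was 84.9% (84.7% to 85%), 79.9% (79.7% to 80.1%) and 70.4% (70.1% to 70.7%) in the same order. The ratio of iCD8a to ILC1 was 1.33 (1.32 to 1.34) and that of iCD8a to CD11b+ 2.49 (2.46 to 2.51), both under the 4-fold mark. Per kilobase of annotated exon, which allows levels of different genes to be compared, Rgs1 ranked first of the 121 members in all 3 libraries, at 872, 655 and 350.5 CPM per kilobase.

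The R4 subfamily, small RGS proteins that act on Gi and Gq α subunits and to which Rgs1 belongs, held 1 member that was apart. Rgs16 stood at 95.3 CPM in ILC1, 4.57 in iCD8a and 0.851 in CD11b+. It was 20.8-fold higher in ILC1 than in iCD8a (17.2 to 25.5) and 112-fold higher than in CD11b+ (75.1 to 175). Rgs2, which is selective for Gq, was near level at 670.2, 688 and 572 CPM in iCD8a, ILC1 and CD11b+. Rgs3 was at 240.7, 207 and 65.7 CPM, with a fold of 3.66 between iCD8a and CD11b+ (3.47 to 3.86) that fell short of the mark. Rgs18, known from platelets, was at 3.72, 3.41 and 6.20 CPM. Rgs16 shares 10.1% of its exonic bases with an annotated gene on the opposite strand, and the strand setting of the counting is not given.

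**Figure D1:**
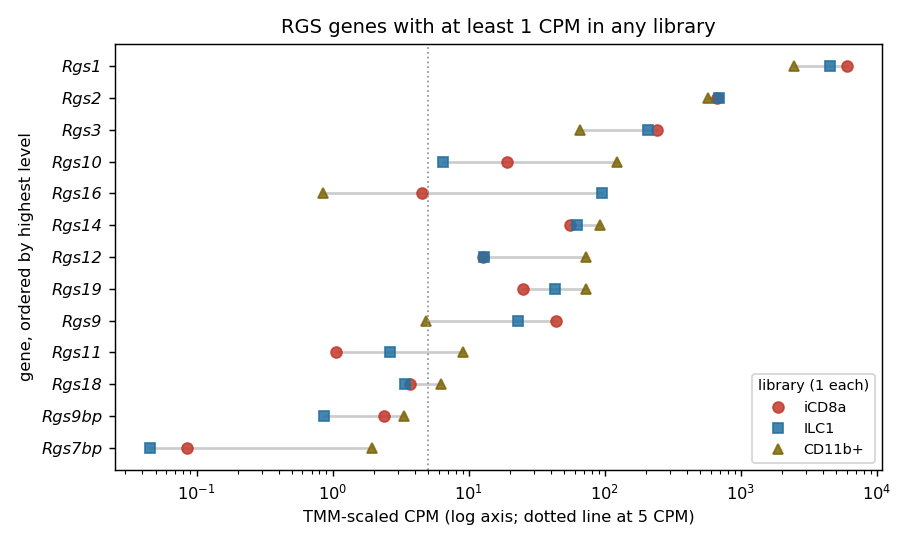
Levels of the 13 RGS genes that reached 1 CPM anywhere, as TMM-scaled CPM on a log axis with 1 point per library. Rgs1 lies highest in all 3 libraries, Rgs2 is near level, and Rgs16 spans 0.851 CPM in CD11b+ to 95.3 CPM in ILC1.

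The R7 subfamily works in a complex with the β subunit Gβ5 and with membrane anchors, and is known mainly from neurons and photoreceptors. Rgs9, which ends the light response in photoreceptors, was highest in iCD8a at 43.4 CPM, with 22.9 in ILC1 and 4.86 in CD11b+. Both iCD8a and ILC1 were apart from CD11b+, by 8.94-fold for iCD8a (7.47 to 10.8) and 4.72-fold for ILC1 (3.90 to 5.74). Its obligate partner Gnb5 was at 3.94, 2.59 and 2.37 CPM, and the anchor Rgs9bp at 2.37, 0.863 and 3.33 CPM. Rgs11, of the same subfamily, ran the other way at 1.06, 2.64 and 9.0 CPM, 8.51-fold higher in CD11b+ than in iCD8a (5.63 to 13.4). Enteric neuron and glia markers summed to 5.71, 4.91 and 4.61 CPM over 7 genes in the 3 libraries.

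The R12 subfamily, which acts on Gi, was most abundant in CD11b+. Rgs10, a small member of myeloid cells, was at 122.8 CPM in CD11b+, 19.3 in iCD8a and 6.45 in ILC1. The folds were 6.38 over iCD8a (5.78 to 7.05) and 19 over ILC1 (16.1 to 22.7). Rgs12, a large scaffold with several protein-binding domains, was at 72.5 CPM in CD11b+, 12.7 in iCD8a and 13.0 in ILC1, and CD11b+ exceeded iCD8a 5.73-fold (5.07 to 6.49) and ILC1 5.58-fold (4.93 to 6.33). In CD11b+, iCD8a and ILC1, Rgs14 was at 92.1, 55.6 and 62.5 CPM and Rgs19, of the RZ subfamily, at 72.2, 25.1 and 43.1 CPM, and neither was apart in a pair.

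Proton-sensing receptors and their relative Gpr132 differed from each other in pattern. Gpr132, responsive to lysolipids and oxidised fatty acids, was low in iCD8a. It stood at 69.9 CPM there, 911 in ILC1 and 677 in CD11b+, which is 13.0-fold higher in ILC1 (12.4 to 13.7) and 9.69-fold higher in CD11b+ (9.21 to 10.2). Per kilobase its rank among the members was 2 in both ILC1 and CD11b+ and 9 in iCD8a. Gpr65, a proton sensor that raises cyclic AMP, was at 71.9, 142 and 74.8 CPM in iCD8a, ILC1 and CD11b+, within 2-fold in every pair. Gpr4, also a proton sensor, was at 1.23, 0.318 and 103 CPM, 84.0-fold higher in CD11b+ than in iCD8a (58.4 to 126) and 324-fold higher than in ILC1 (157 to 807). Gpr4 is known as an endothelial gene. Of 7 endothelial markers, 3 reached 5 CPM in any library and could be apart. Of these, 0 were apart in favour of CD11b+, and Cdh5 was apart in favour of iCD8a over both others. Cdh5 was at 11.2, 0.0909 and 1.56 CPM in iCD8a, ILC1 and CD11b+, while Vwf was highest in CD11b+, at 2.24, 3.91 and 8.83 CPM. Without Pecam1, which leukocytes also express, the other 6 markers summed to 17.2, 4.5 and 11.7 CPM in the same order. Tek had 0 counts in iCD8a and ILC1 and 3 in CD11b+. The part of endothelial RNA in the Gpr4 values was not tested.

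The lysophosphatidylserine receptors were highest in iCD8a or ILC1. Gpr34 was highest in iCD8a at 223.6 CPM, with 88.0 in ILC1 and 25.5 in CD11b+, 8.76-fold higher in iCD8a than in CD11b+ (8.10 to 9.48). The 2.54-fold difference between iCD8a and ILC1 (2.41 to 2.68) was under the mark. Gpr174, an X-linked receptor of lymphocytes, was at 58.7 CPM in ILC1 against 3.51 in iCD8a and 0.461 in CD11b+. It was 16.7-fold higher in ILC1 than in iCD8a (13.4 to 21.1) and 127-fold higher than in CD11b+ (74.2 to 240). Abhd16a and Abhd12, enzymes that make and break down the ligand, were at 84.0, 74.8 and 81.0 CPM and at 68.3, 48.5 and 135 CPM in iCD8a, ILC1 and CD11b+.

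Gpr18 and Gpr55, both known from intraepithelial lymphocytes, were present in all 3 libraries. Gpr55, a receptor for lysophosphatidylinositol, reached 427.6 CPM in iCD8a, beside 246.6 in ILC1 and 121 in CD11b+. In iCD8a its rank among members per kilobase was 3, at 115 CPM per kilobase. The 3.54-fold difference between iCD8a and CD11b+ (3.40 to 3.68) was under the mark. Gpr18 was at 74.1, 101 and 17.4 CPM. Both iCD8a and ILC1 were apart from CD11b+ for Gpr18, by 4.27-fold for iCD8a (3.86 to 4.73) and 5.82-fold for ILC1 (5.27 to 6.43). Gpr171, a relative of the P2Y receptors, was at 178, 184 and 52.9 CPM. Gpr160 was at 56.5, 29.3 and 12.3 CPM, with iCD8a 4.59-fold above CD11b+ (4.08 to 5.18). Gpr146 was at 71.6, 26.4 and 28.3 CPM and was apart in no pair.

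Of 8 lipid and metabolite receptors that reached 5 CPM, 2 were highest in iCD8a (Gpr34 and Gpr55), 2 in ILC1 (Gpr18 and Gpr174) and 4 in CD11b+ (Gpr183, Gpr35, Gpr84 and Gpr31b). Gpr183, which guides cells along oxysterol gradients, was at 105 CPM in CD11b+, 26.5 in ILC1 and 16.4 in iCD8a. It was 6.4-fold higher than in iCD8a (5.75 to 7.13), and its 3.96-fold difference from ILC1 (3.63 to 4.34) was under the mark. Of the enzymes that shape its ligand, Hsd3b7 was at 28.2 CPM in CD11b+ against 2.88 in iCD8a and 2.32 in ILC1, while Ch25h had 7 counts at most in any library. Gpr35, a receptor of gut epithelium and myeloid cells, was at 199 CPM in CD11b+, 35.4 in iCD8a and 4.36 in ILC1. All 3 pairs were apart for Gpr35, with folds of 5.61 for CD11b+ over iCD8a (5.22 to 6.04), 45.6 for CD11b+ over ILC1 (37.2 to 56.3) and 8.12 for iCD8a over ILC1 (6.57 to 10.1). The 14 genes of the epithelial list summed to 877, 498 and 1800 CPM in iCD8a, ILC1 and CD11b+, with none at 0. Without Cdh1, the sums were 518, 209 and 1592 CPM. Of the 14 genes, 2 (Epcam and Cdh17) were apart in favour of iCD8a over ILC1 and 0 the other way. In favour of CD11b+, 11 were apart over iCD8a and 12 over ILC1, with 0 the other way. The part of epithelial RNA in the Gpr35 values was not tested. Gpr84, a receptor for medium-chain fatty acids, was at 6.10 CPM in CD11b+ and 0.727 in ILC1, with 0 counts in iCD8a, so that CD11b+ was at least 48.0-fold higher than iCD8a when 3 counts are taken as the limit. Gpr31b was at 17.3 CPM in CD11b+, 0.169 in iCD8a and 0.0909 in ILC1, which rest on 487, 4 and 2 counts.

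The orphan receptors Gpr141, Gpr82 and Gpr161 had few counts outside CD11b+. Gpr141 was at 114 CPM there, with 3 counts in iCD8a and 6 in ILC1, a fold of 895 (306 to 4340.3) and 417 (191 to 1136). Gpr82 was at 17.8 CPM against 0.381 and 0.227, 46.7-fold (24.4 to 103) and 78.3-fold (33.3 to 242) higher. Gpr161, a receptor of the primary cilium, was at 5.96 CPM with 1 count in iCD8a and 0 in ILC1. Markers of 3 granulocyte types were also counted in CD11b+: 7 neutrophil genes summed to 239 CPM with Ly6g at 0 counts, 6 eosinophil genes to 172 CPM, and 7 mast cell genes to 87.4 CPM. A few genes gave most of each sum: Csf3r (129.7 CPM) and Retnlg (92.9), Siglecf (89.3), Ccr3 (48.5) and Ear2 (30.6), and Mcpt1 (50.5) and Mcpt2 (20.7). Mpo, Epx, Prg2, Mcpt4, Tpsb2 and Fcer1a were below 1 CPM there. In iCD8a and ILC1 the 3 sums lay between 0.762 and 9.54 CPM. The 8 dendritic cell genes summed to 10113 CPM in CD11b+, of which H2-Ab1 gave 7529, against 952 in iCD8a and 1128 in ILC1. Of these 8 genes, 5 were apart in favour of CD11b+ over iCD8a and 1 the other way, and 4 and 0 against ILC1. The part of each cell type in the CD11b+ receptor levels was not tested.

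**Figure D2:**
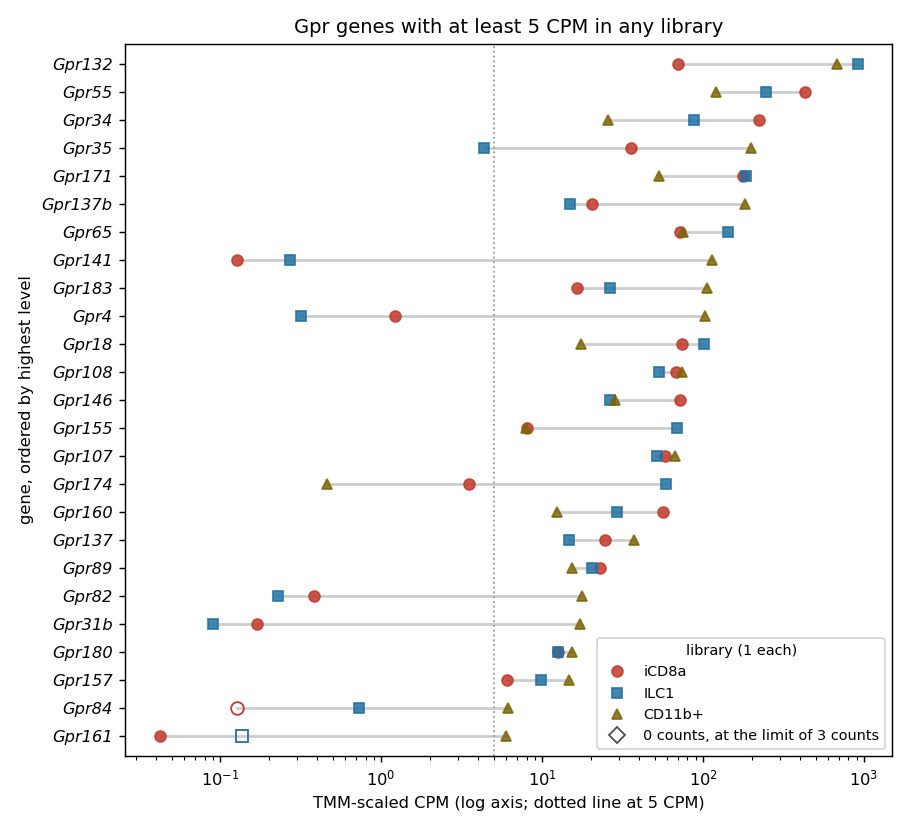
Levels of 25 Gpr genes that reached 5 CPM anywhere, as TMM-scaled CPM on a log axis. Open symbols mark 0 counts and are drawn at the level of 3 counts. Gpr132 is lowest in iCD8a at 69.9 CPM, and Gpr141, Gpr4, Gpr82 and Gpr31b have their CD11b+ points far to the right of those of iCD8a and ILC1.

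Several Gpr symbols name proteins that were classed here as intracellular or atypical membrane proteins and not as typical surface receptors. Gpr107 and Gpr108, proteins of the Golgi, were at 58.3, 51.5 and 66.8 CPM and at 67.9, 52.9 and 74.0 CPM in iCD8a, ILC1 and CD11b+, within 1.40-fold in every pair. Gpr89, a Golgi channel subunit, was at 22.7, 20.4 and 15.3 CPM, and Gpr180 at 12.5, 12.6 and 15.3 CPM. Gpr137 was at 24.5, 14.6 and 37.4 CPM and was apart in no pair. Gpr157, which was not placed in this class, was at 6.09, 9.82 and 14.6 CPM and was also apart in no pair. The lysosomal proteins Gpr155 and Gpr137b were apart. Gpr155, a cholesterol sensor, was at 68.8 CPM in ILC1 against 8.08 in iCD8a and 7.90 in CD11b+, 8.51-fold (7.31 to 9.94) and 8.70-fold (7.55 to 10.1) higher. Gpr137b was at 183 CPM in CD11b+ against 20.4 in iCD8a and 14.9 in ILC1, 8.97-fold (8.17 to 9.87) and 12.2-fold (11 to 13.7) higher. Gpr137b has an annotated pseudogene copy, so its counts are uncertain.

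Adgrg1, Adgrl2 and Adgrf3, which were higher in iCD8a than in both other libraries, are adhesion receptors. Adgrg1, known as GPR56 and as a marker of cytotoxic lymphocytes, reached 39.0 CPM in iCD8a, beside 1.95 in ILC1 and 4.82 in CD11b+. It was 19.9-fold higher than in ILC1 (14.7 to 27.8) and 8.08-fold higher than in CD11b+ (6.75 to 9.75). Adgrl2, a latrophilin known from synapses, was at 61.0, 2.68 and 8.12 CPM, 22.8-fold (17.5 to 30.1) and 7.52-fold (6.53 to 8.68) higher. Adgrf3 was at 6.60 CPM in iCD8a, with 1 count in ILC1 and 22 counts in CD11b+, a fold of 145 (25.7 to 5774) and 8.47 (5.40 to 13.9). Adgrv1, a very large receptor of sensory hair cells, was 4.91-fold higher in iCD8a than in ILC1 (3.29 to 7.58), at 6.47 against 1.32 CPM, and stood at 1.84 CPM in CD11b+. The plasmacytoid dendritic cell list summed to 1367, 1354 and 425 CPM in iCD8a, ILC1 and CD11b+, and without Irf8, its most abundant gene, to 897, 171 and 185 CPM, with Siglech at 224, 0.954 and 12.9 CPM, and its part in these values was not tested.

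Latrophilins differed from each other. Adgrl1 was shared by iCD8a and ILC1, at 77.3 CPM in iCD8a and 84.3 in ILC1 against 15.2 in CD11b+, a fold of 5.08 (4.57 to 5.66) and 5.54 (4.99 to 6.17). Adgrl3 was found in CD11b+ at 40.6 CPM, with 2 counts in iCD8a and 7 in ILC1, a fold of 479 (132 to 3961) and 127 (61.7 to 318). Adgrl1 shares 12.9% of its exonic bases, and Adgrl3 8.91%, with an annotated gene on the opposite strand. The same share was 39.5% for Gpr84, 24.8% for Gpr89, 24.7% for Gpr65 and 15.4% for Gpr137, so their levels are less certain too.

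Among adhesion receptors of the E subfamily, which myeloid cells use, Adgre4 was at 144 CPM in CD11b+ against 0.212 in iCD8a and 1.00 in ILC1, 679-fold (291 to 2091) and 144-fold (94.7 to 229) higher. Adgre5, known as CD97, was found in all libraries and was lowest in iCD8a, at 71.2 CPM against 331 in ILC1 and 649.7 in CD11b+. The folds over iCD8a were 4.65 in ILC1 (4.41 to 4.91) and 9.13 in CD11b+ (8.68 to 9.60). Adgre5 shares 23.8% of its exonic bases with Ddx39 on the opposite strand, so its level is less certain. Its ligands were highest in ILC1: Cd55 was at 0.465, 18.8 and 3.01 CPM and Thy1 at 4.87, 412 and 30.2 CPM in iCD8a, ILC1 and CD11b+.

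In the G subfamily, Adgrg5, a leukocyte receptor, was near level at 208, 226 and 255 CPM in iCD8a, ILC1 and CD11b+, within 1.23-fold in every pair. Adgrg3, its neighbour in the subfamily, was at 14.0, 34.5 and 33.7 CPM and was apart in no pair. Adgra2, a coreceptor of Wnt signalling known from brain vessels, was at 31.3 CPM in CD11b+ against 0.804 and 0.364, 38.9-fold (24.8 to 65) and 86.1-fold (43.5 to 200.1) higher. Adgra3, of the same subfamily as Adgra2, was at 6.01, 5.50 and 2.13 CPM in iCD8a, ILC1 and CD11b+ and was apart in no pair. Partners of Adgrg1 were more abundant in CD11b+, with the crosslinking enzyme Tgm2 at 1545 CPM and the tetraspanin Cd81 at 67.0 CPM, against 6.47 and 0.889 CPM in iCD8a.

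**Figure D3:**
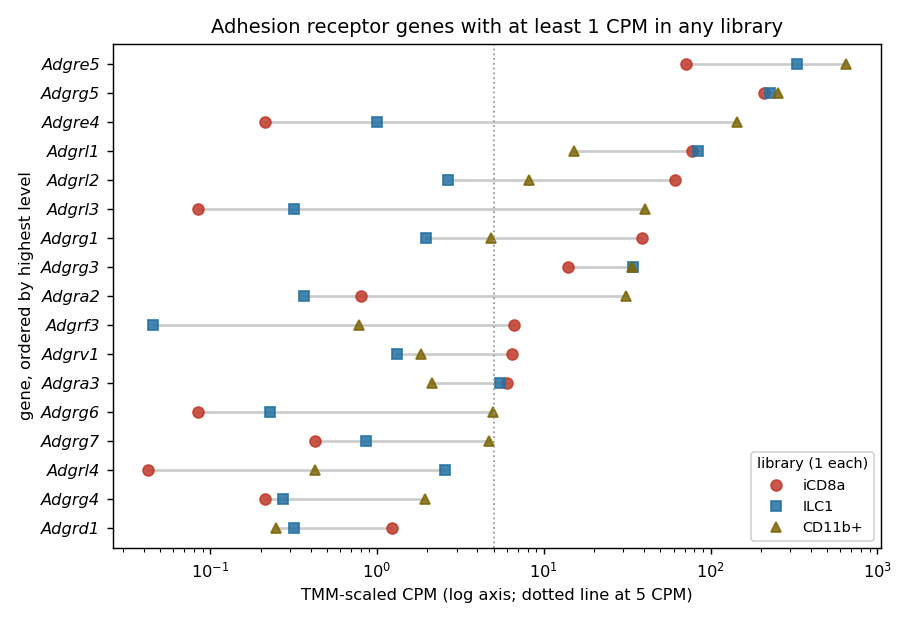
Levels of the 17 adhesion receptor genes that reached 1 CPM anywhere, as TMM-scaled CPM on a log axis with 1 point per library. Adgrl2, Adgrg1 and Adgrf3 lie highest in iCD8a, Adgre4, Adgrl3 and Adgra2 in CD11b+, and Adgrg5 is near level at 208 to 255 CPM.

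Counts of members apart were read beside all protein-coding genes that passed the same minimum. Between iCD8a and ILC1, 38 members reached 5 CPM in either library, and 5 were higher in iCD8a (13.2%) and 5 in ILC1 (13.2%). The background was 3.51% and 4.74% of 9804 genes. Of the 5 higher in iCD8a, 4 were adhesion receptors (Adgrf3, Adgrg1, Adgrl2 and Adgrv1) and the other was Gpr35. Those higher in ILC1 were Gpr132, Gpr155, Gpr174, Rgs16 and Adgre5. Macrophage and monocyte markers were also apart in favour of ILC1 over iCD8a, for 8 of 10, and peritoneal-type macrophage markers summed to 7.11 CPM in iCD8a and 428 in ILC1. Their part in the ILC1 values was not tested.

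**Figure D4:**
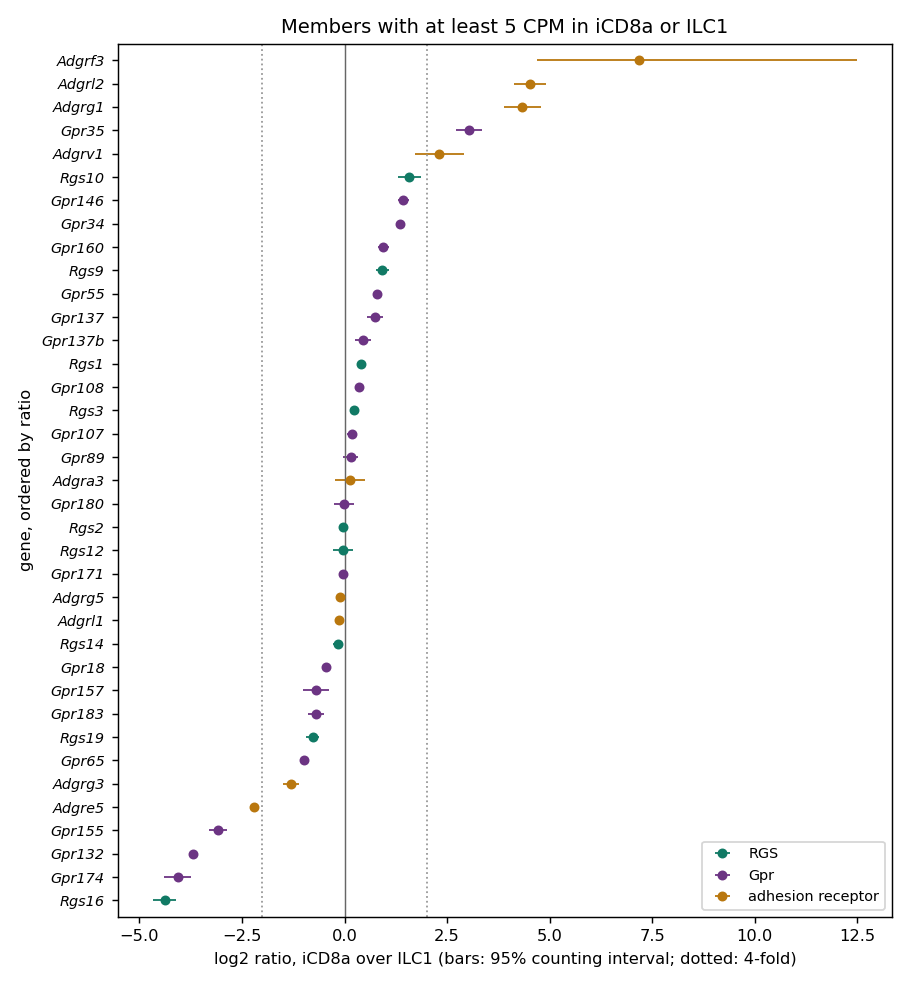
Log2 ratio of iCD8a over ILC1 for 37 members with at least 5 CPM in either library, with 95% counting intervals as bars and dotted lines at a 4-fold difference. On either side 5 members lie beyond the dotted line, and most RGS genes, in green, lie near 0 apart from Rgs16.

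Against CD11b+, 47 members were compared for iCD8a and 46 for ILC1. For iCD8a, 8 were higher (17%) and 17 lower (36.2%), beside a background of 5.72% and 13.2%. Without TMM factors 12 were higher and 17 lower, with no background computed at that setting. For ILC1, 6 were higher (13%) and 13 lower (28.3%), beside a background of 5.66% and 12.9%. In each direction the share among these members was above that among all genes, and both comparisons use the same CD11b+ library.

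Members higher in 1 library than in both others numbered 3 for iCD8a (Adgrf3, Adgrg1 and Adgrl2), 3 for ILC1 (Gpr155, Gpr174 and Rgs16) and 13 for CD11b+, of 49 that reached 5 CPM in any library. The background was 1.46%, 1.62% and 10.1%. The 13 of CD11b+ were Gpr4, Gpr31b, Gpr35, Gpr82, Gpr84, Gpr137b, Gpr141, Gpr161, Adgra2, Adgre4, Adgrl3, Rgs10 and Rgs12. Members lower in 1 library than in both others were Gpr132 and Adgre5 for iCD8a, Gpr35 for ILC1, and Gpr18, Adgrl1 and Rgs9 for CD11b+, beside a background of 2.17%, 1.45% and 2.42%. The median log2 ratio of the 64 members at 1 CPM or more was 0.13 for iCD8a over ILC1, beside 0.06 over all protein-coding genes. With CD11b+ as the denominator it was −0.73 for iCD8a and −0.66 for ILC1, beside 0.04 and −0.03.

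**Figure D5:**
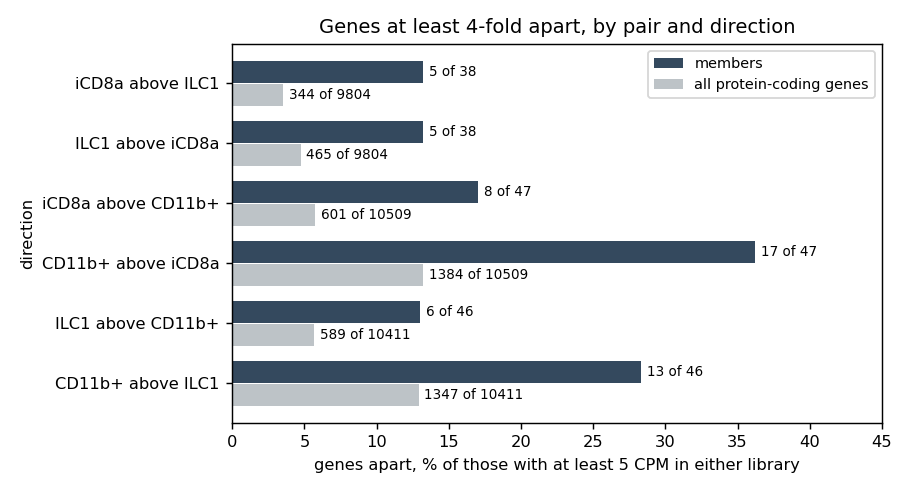
Share of genes at least 4-fold apart in each direction, for members (dark) and all protein-coding genes (light) with at least 5 CPM in either library of the pair. The largest bar is for members higher in CD11b+ than in iCD8a, 17 of 47 against 1384 of 10509.

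For members higher in 1 library than in both others, the 250 bases before the transcription start were searched for 6 short motifs, both strands included. Of these 19 members, 16 had an entry in the RefSeq promoter table (build GRCm38.p6), and a gene may have more than 1 start. The PU.1-type ETS motif GAGGAAGT, a site form of myeloid promoters, stood upstream of 2 of 11 members high in CD11b+ (Gpr31b and Rgs12), against 2.44% of all 32851 windows in the table and, counted per gene, 2.79% of 27025 genes. Over all 87 members with an entry, 6 held it (6.90%). The AP-1 motif TGANTCA stood upstream of 1 of 2 members high in iCD8a (Adgrg1), 0 of 3 in ILC1 and 2 of 11 in CD11b+ (Gpr35 and Rgs12). Its shares were 6.75% of windows, 7.82% of genes and 8 of the 87 members (9.20%). Motifs for RUNX (TGTGGTT), T-box factors (AGGTGTGA), CREB (TGACGTCA) and NR4A receptors (AAAGGTCA) were found in none of the 16, against 4.40%, 1.12%, 1.55% and 1.34% of windows. Counted per gene, these shares were 5.08%, 1.295%, 1.77% and 1.55%, and 5, 0, 1 and 1 of the 87 members held them. At such shares 16 genes are too few for an absence to be read. A match is a description of letters and not a site of binding. The windows that hold a match are shown 5′ to 3′ on the strand of the gene, with matched letters in capitals, because they carry the motifs named. They are chr8:94984149-94984398 (plus strand) for Adgrg1, chr17:13052281-13052530 (minus strand) for Gpr31b, chr1:92978653-92978902 (plus strand) for Gpr35 and chr5:34998828-34999077 (plus strand) for Rgs12.
Adgrg1: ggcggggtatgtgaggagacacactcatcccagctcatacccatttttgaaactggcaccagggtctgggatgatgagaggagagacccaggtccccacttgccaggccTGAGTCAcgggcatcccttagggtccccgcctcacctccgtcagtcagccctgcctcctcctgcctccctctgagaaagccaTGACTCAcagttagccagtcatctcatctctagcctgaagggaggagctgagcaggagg
Gpr31b: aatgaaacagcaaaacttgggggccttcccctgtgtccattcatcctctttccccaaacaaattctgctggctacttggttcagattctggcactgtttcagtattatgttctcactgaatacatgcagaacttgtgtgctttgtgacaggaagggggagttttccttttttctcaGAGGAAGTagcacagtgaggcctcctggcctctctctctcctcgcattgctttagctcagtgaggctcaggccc
Gpr35: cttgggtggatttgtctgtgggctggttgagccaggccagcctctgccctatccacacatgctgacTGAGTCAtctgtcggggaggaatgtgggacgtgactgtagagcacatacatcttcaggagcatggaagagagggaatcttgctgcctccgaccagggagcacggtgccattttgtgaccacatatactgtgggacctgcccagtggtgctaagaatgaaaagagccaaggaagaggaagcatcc
Rgs12: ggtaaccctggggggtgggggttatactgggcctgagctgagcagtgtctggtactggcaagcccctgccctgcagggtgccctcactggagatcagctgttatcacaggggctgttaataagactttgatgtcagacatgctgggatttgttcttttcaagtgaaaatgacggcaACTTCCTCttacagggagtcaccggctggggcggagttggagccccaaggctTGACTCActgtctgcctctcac

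In the printed windows Adgrg1 holds 2 AP-1 matches, which begin 141 and 59 bases before the start. In Gpr35 the AP-1 match begins 184 bases before the start. The GAGGAAGT match begins 74 bases before the start in Gpr31b, and in Rgs12 its reverse complement, ACTTCCTC, also begins 74 bases before the start. Rgs12 holds an AP-1 match 22 bases before the start as well, and the matches do not overlap.

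The G proteins these receptors use were present in all 3 libraries. Of 16 α subunit genes 9 reached 5 CPM and 0 were apart in any pair. Gnai2, the main Gi subunit of leukocytes, was at 704, 617 and 1238 CPM in iCD8a, ILC1 and CD11b+, and Gna13, which acts on the cytoskeleton, at 541, 1006 and 458.5 CPM. Of 17 β and γ subunit genes, 8 reached 5 CPM in any library. Gng10 was apart in favour of CD11b+ over iCD8a, and Gng10 and Gngt2 in favour of CD11b+ over ILC1. Over all protein-coding genes at 5 CPM in the pair, these shares were 13.2% and 12.9%.

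Among the receptor kinases, which switch off active receptors, Grk3 and Grk5 were apart. Grk3 was lowest in ILC1 at 5.54 CPM, with 80.9 in iCD8a and 234 in CD11b+, so that ILC1 was 14.6-fold below iCD8a (12.1 to 17.7) and 42.2-fold below CD11b+ (35.3 to 50.9). Grk5 was at 2.07, 27.7 and 37.9 CPM, 13.3-fold higher in ILC1 than in iCD8a (9.97 to 18.2). Grk6 was at 882, 549.6 and 264 CPM and the arrestin Arrb2 at 207, 239 and 464 CPM, and neither was apart. In the list of 10 kinases and arrestins, 7 reached 5 CPM in any library. Between iCD8a and ILC1, 1 was higher in iCD8a and 1 in ILC1, beside 3.51% and 4.74% of all protein-coding genes. CD11b+ was higher for 1 gene in each of its pairs, beside 13.2% over iCD8a and 12.9% over ILC1.

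Effectors below the G proteins that were apart included both regulatory subunits of the lipid kinase PI3Kγ. Pik3r5 was lowest in iCD8a at 16.8 CPM, with 346 in ILC1 and 295 in CD11b+, 20.6-fold (18.6 to 22.9) and 17.6-fold (15.9 to 19.5) higher than in iCD8a. Pik3r6, the alternative subunit, was at 47.7, 8.0 and 88.4 CPM, while the catalytic subunit Pik3cg was near level at 104.9, 92.6 and 97.1 CPM. Plcb1 was found in CD11b+ at 14.0 CPM with 1 count in iCD8a and 6 in ILC1, and Plcb4 was highest in ILC1 at 17.7 CPM against 0.677 and 2.80. Of 20 effectors, 13 reached 5 CPM in any library. Between iCD8a and ILC1, 1 was higher in iCD8a and 2 in ILC1, beside 3.51% and 4.74% of all protein-coding genes. Between iCD8a and CD11b+, 1 was higher in iCD8a and 4 in CD11b+, beside 5.72% and 13.2%. Between ILC1 and CD11b+, 2 were higher in ILC1 and 4 in CD11b+, beside 5.66% and 12.9%. In a list of 14 further RGS-domain proteins and regulators, which includes the members Rgs7bp and Rgs9bp, 11 reached 5 CPM and Axin2 alone was apart. It was at 29.8, 39.9 and 6.45 CPM in iCD8a, ILC1 and CD11b+, with both iCD8a and ILC1 above CD11b+. Of 12 ligand and partner genes matched from a list of 13, 8 reached 5 CPM in any library. ILC1 exceeded iCD8a for 3 and iCD8a exceeded ILC1 for 0, and CD11b+ exceeded iCD8a for 5 with 0 the other way. In the remaining pair ILC1 exceeded CD11b+ for 2 and CD11b+ exceeded ILC1 for 3. The shares over all protein-coding genes are those given above for the effectors, and such short lists describe only the genes in them.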

How the data were processed

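RNA-seq was measured in 3 sorted populations of RAG-2 null mice, 1 library each, grouped by the cell type label. The series' design text names an Illumina HiSeq 2500, alignment by TopHat and a read count by HTSeq, and CASAVA 1.9 and TopHat2 stand in the submitters' processing notes. What the authors deposited is a raw count of reads for each Ensembl gene. Genome build, annotation and strand setting: not given in the sources used here. The 5 rows that name no gene stayed out of library sizes; not-unique alignments held 26.9% to 34.5%, reads in no feature 8.56% to 11.0% and ambiguous reads 0.889% to 1.08% of the sum of all rows. The share of gene counts from mitochondrially encoded genes was 1.60%, 2.09% and 9.53% (iCD8a, ILC1, CD11b+).

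Symbols, biotypes and exon lengths came from GENCODE M21 by Ensembl ID, and 35449 of 37224 IDs matched. Of 127 annotated genes that match the name pattern, 124 were among the IDs and 121 were members. With edgeR 4.0.16 (R 4.3.3), the TMM factors came to 1.09, 0.992 and 0.925 (iCD8a, ILC1, CD11b+). Folds carry exact conditional binomial (Clopper-Pearson) intervals (scipy 1.17.1, Python 3.11.15), as do shares. Counts of reads without molecular identifiers make these cover counting error only. A library at 0 counts was set to a limit of 3 counts. Log2 ratios use a prior count of 0.5. No test could be fitted with 1 library per group, so edgeR and DESeq2 1.42.0 served for scaling factors alone. The steps were tested on simulated counts. Members reaching 5 CPM could be named, with folds for those apart in a pair, and genes of 6 pathway lists where apart or most abundant in their class. Gnb5, Ch25h, Abhd12, Abhd16a, Arrb2, Pik3cg and the members between 1 and 5 CPM fall outside that rule and were chosen after their values were seen. Folds of Rgs1, Rgs3 and Gpr55, and fold bounds of Gpr65, Gpr107, Gpr108 and Adgrg5, also fall outside it, since these genes were apart in no pair. The members and lists were chosen with earlier results of these data known, and the motifs after the levels had been seen. Members below the minimum entered no comparison, so counts describe those above it. Alternatives were other scalings, minimums and folds, thinning to 21678113 counts and removal of mitochondrial or of the 50 most abundant genes per library. Values of 1 member are not reported here and are left out of the plots of levels and ratios, though it stays in the counts. Marker sums without Itgam, Irf8, Pecam1 or Cdh1 were added after the values were seen.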

Additional observations from a re-analysis of the deposited data

Results flagged for a closer look

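Gpr141b, annotated as a long non-coding RNA and so not among the members, had counts above the limit of 3 that a count of 0 allows. It had 7 counts in iCD8a, 0 in ILC1 and 7 in CD11b+. The neighbour by name, Gpr141, had 3, 6 and 3204 counts.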

How the results depend on the processing

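No paired analysis was possible because each population has 1 library. Under DESeq2 and upper-quartile factors, thinning, and removal of mitochondrial or of the most abundant genes, numbers of members and pathway genes apart stayed within 1.5 times the reported numbers. With unscaled CPM the same held for the numbers, while the median log2 ratio of all protein-coding genes went to 0.19, 0.27 and 0.07 for iCD8a over ILC1, iCD8a over CD11b+ and ILC1 over CD11b+, and that of members to 0.26, −0.43 and −0.46. Over members with at least 5 CPM the pairs with CD11b+ gave −0.29 and −0.48. Of 52 member folds of genes apart, 14 values left their counting interval under another scaling, all with unscaled CPM. None of the folds changed direction, but this was fixed in advance. Each was at least 4, and unscaled CPM, the widest shift, moved a fold by a factor of 0.848 to 1.18.

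At a minimum of 1 CPM, 26 members were higher in CD11b+ than in iCD8a and 21 than in ILC1, 21 were higher in CD11b+ than in both others, and 5 in ILC1. For pathway genes, iCD8a then exceeded ILC1 for 4 and CD11b+ for 4, and CD11b+ exceeded iCD8a for 20. With no minimum the member numbers were 9 higher in ILC1 than in iCD8a, 27 in CD11b+ than in iCD8a, 11 in ILC1 than in CD11b+ and 23 lower, with 6 highest in ILC1 and 21 in CD11b+. For pathway genes, iCD8a then exceeded ILC1 for 5 and CD11b+ for 4, and CD11b+ exceeded iCD8a for 21 and ILC1 for 17. At 10 CPM, iCD8a exceeded ILC1 for 3 members and CD11b+ for 1 pathway gene.

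At a fold of 2, members numbered 8 higher in iCD8a than in ILC1, 16 in iCD8a than in CD11b+ and 13 in ILC1 than in CD11b+, with 6 highest in iCD8a. For pathway genes, iCD8a exceeded ILC1 for 5 and CD11b+ for 7, ILC1 exceeded CD11b+ for 11, and CD11b+ exceeded iCD8a for 19 and ILC1 for 17. At a fold of 8, CD11b+ was exceeded by iCD8a for 4 members and by ILC1 for 3, and pathway genes numbered 1, 1 and 2 for iCD8a over ILC1, iCD8a over CD11b+ and ILC1 over CD11b+. These changes follow from the looser or stricter rule. At the other scalings, minimums and folds the share over all protein-coding genes was not computed. The numbers there cannot be set beside a background. Genes with under 10 counts in a library have wide intervals, so depth limits their folds.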

Other observations

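Between 1 and 5 CPM lay 15 members, which could not be counted as apart by the rule. Gpr15, a receptor that directs lymphocytes to the large intestine, had 94 counts in ILC1 (4.27 CPM), 17 in CD11b+ and 0 in iCD8a, so that ILC1 was at least 33.6-fold higher than iCD8a. Gpr15 shares 12.5% of its exonic bases with Cpox on the opposite strand, so its level is less certain. Adgrl4, an endothelial receptor, had 56 counts in ILC1, 12 in CD11b+ and 1 in iCD8a, a fold of 60.1 between ILC1 and iCD8a (10.4 to 2417). Adgrg6, known from Schwann cells, was at 4.96 CPM in CD11b+ with 2 counts in iCD8a and 5 in ILC1. Adgrg7, a gene of intestinal epithelium, was at 4.68 CPM in CD11b+, 0.423 in iCD8a and 0.863 in ILC1, a fold of 11.1 over iCD8a (5.83 to 23.6) and 5.42 over ILC1 (3.34 to 9.29). Of the 14 epithelial markers, 11 were apart in favour of CD11b+ over iCD8a and 12 over ILC1. Krt8 and Vil1 stood at 186 and 76.6 CPM in CD11b+. They were at 19.3 and 9.23 CPM in iCD8a and 23.4 and 9.82 CPM in ILC1. Cdh17 and Cdh1 were highest in iCD8a, at 193 and 359 CPM, with 72.3 and 208 CPM in CD11b+. The part of epithelial RNA in the Adgrg7 values was not tested.

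Gpr3, a receptor with constant activity on cyclic AMP, was at 2.55 CPM in CD11b+ with 2 counts in iCD8a and 6 in ILC1. Rgs7bp, the anchor of the R7 subfamily, had 55 counts in CD11b+, 2 in iCD8a and 1 in ILC1. Adgrd1 was highest in iCD8a, at 29 counts against 7 in each of the other libraries.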
